A study of Mus musculus with 16 samples.

Results

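Antioxidant enzymes turn superoxide and peroxides, the reactive by-products of respiration, into less reactive molecules. The RNAs of 10 of these genes were followed over all groups of the series: Sod1, Sod2, Sod3, Cat, Gpx1, Gpx4, Prdx3, Prdx5, Txn2 and Hmox1. Members were found by gene name in the scanner output, where 15 non-control probes of 55681 probe names carried one of these names, and every gene had at least 1 probe. Of the 15 probes, 13 passed the filter on dim probes, which asked for a signal well above background on all arrays of some group. Each gene is described by its brightest probe, and on each of the 16 arrays these 10 probes stood well above background.

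The muscle was gastrocnemius, a calf muscle of mixed fibre type, from male C57BL6 littermates of 8 to 16 weeks that were Eif6+/+ (WT) or Eif6+/- (Het). Eif6 encodes eukaryotic initiation factor 6, which keeps the large ribosomal subunit from joining the small one until it is released. RNA came from whole muscle, from the polysome part of a density gradient, where RNAs loaded with several ribosomes run, and from its monosome part, where RNAs with 1 ribosome run, with 3 arrays per genotype for whole muscle and polysomes and 2 for monosomes (WT mice 1 and 2, Het mice 1 and 3). All levels below are log2 signals of 1-colour Agilent arrays after quantile normalization, and the level of one probe is not set against that of another.

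Superoxide dismutases convert superoxide to hydrogen peroxide: SOD2 does so in the mitochondrial matrix, SOD1 mainly in the cytosol and SOD3 outside the cell. Hydrogen peroxide is then removed by catalase (Cat), by glutathione peroxidases such as GPX1 and GPX4, and by peroxiredoxins, of which PRDX3 is mitochondrial and PRDX5 is found in mitochondria and other compartments. Thioredoxin 2 (Txn2) reduces the mitochondrial peroxiredoxins again, and heme oxygenase 1 (Hmox1) breaks down heme and is strongly inducible, also in macrophages. For counts by compartment, Sod2, Prdx3, Prdx5 and Txn2 were taken as mitochondrial and the other 6 as outside mitochondria, although GPX1, GPX4 and SOD1 are also found there in part. The study measured SOD1 and SOD2 by western blot, and in its mitochondrial proteome it lists catalase among the proteins higher in Het. The RNAs of these proteins on ribosomes are of direct interest.

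The probes on which the results turn are shown here, because every value below is the signal of 1 such stretch of transcript. Each line gives the first 30 bases of a probe of 60 bases, 5′ to 3′, in the letters of the array design and in lower case. Positions are those of the scanner output on mouse build mm9 and cover the whole probe.

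Prdx3, chr19:60940148-60940207, minus strand: gcacatagcaccagcacttaatggaagctt

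Gpx1, chr9:108242276-108242335, plus strand: actgcgctcatgaccgaccccaagtacatc

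Gpx4, chr10:79518691-79518842, plus strand: agtttctcattgataagaacggctgcgtgg

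Sod2, chr17:13208074-13208133, plus strand: ggctggtttatagtagtgtagagcattgca

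Sod1, chr16:90226509-90226568, plus strand: cctgtgtggtctgagtctcagactcatctg

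Hmox1, brightest probe, chr8:77624207-77624266, plus strand: atggttgtaagcatccatgttgactgacca

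Hmox1, second probe, chr8:77620797-77620856, plus strand: atagagcgcaacaagcagaacccagtctat

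The Gpx4 probe covers 152 bases of genome with its 60 bases and so spans an exon junction. In the reference transcripts the Prdx3 probe begins at base 1206, the Gpx1 probe at base 647, and the Hmox1 probes at bases 1290 and 324. The files do not say which of these stretches are coding. Many antioxidant genes are controlled through the antioxidant response element, whose core was searched on both strands as TGACNNNGC in RefSeq promoter windows of GRCm38.p6, each 300 bases long around a gene's start. Of 32851 windows, 12.4% held it. Among 11 windows of 8 members, 1 did, that of Sod1, where the match began 56 bases before the start on the opposite strand at chr16:90220706-90220714. It is shown in capitals within its surroundings.

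Sod1 promoter stretch: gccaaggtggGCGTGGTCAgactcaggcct

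No window was listed for Sod3 or Hmox1. A match is a description of letters and says nothing of factor binding.

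Eif6 itself was lower in Het in whole muscle (log2 difference -0.92, SE 0.25, limma adjusted p = 0.36), in polysomes (-1.31, SE 0.25, adjusted p = 0.193) and in monosomes (-1.82, limma adjusted p = 0.0451), with no overlap between genotypes in any of the 3. Array brightness, the 75th percentile of the unscaled signal, lay between 13.5 and 33.0 on the Het whole-muscle arrays and between 42.3 and 150 on the WT ones, and was 63.1 to 106 on Het and 24.1 to 66.1 on WT polysome arrays, so that brightness and genotype cannot be told apart in the polysome to whole-muscle ratios. WT polysome 2 and WT monosome 2 stood apart in signal along transcripts: over 233 pairs of probes on 1 transcript, the median 5′ minus 3′ log2 signal was -0.34 and 0.24 on these arrays and between -1.71 and -1.18 on the other 14. Muscle fibre markers (9 of 9 genes tested) had a summed log2 signal of 19.2 to 20.1 on all arrays. In tissue RNA, fewer cells of a type and less RNA per cell cannot be told apart.

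In whole muscle, none of the 10 antioxidant genes differed between genotypes beyond the spread between mice. For polysomal RNA the methods of the study ask for an absolute log2 difference above 1 with p under 0.05, and for its other muscle arrays they give a different cutoff. The same threshold, with an unadjusted p from limma, which those methods do not name, was used here for all genotype comparisons. It was passed by 0 of 10 members and by 5.63% of the 19812 probes tested, and 0 members had an unadjusted p under 0.05 in limma, nor did any pass by the methods' t-test. Differences (Het minus WT) ran from -1.46 for Hmox1 to 0.16 for Sod2, with a median of -0.04 against -0.03 over all probes. The genotypes overlapped for all 10, whereas over all probes 5.09% had every Het array above every WT array and 8.46% had every Het array below. Adjusted p under 0.05 was reached by 0.0101% of all probes, and the lowest adjusted p of a member was 0.662. These counts are of the brightest probes. The second, dimmer probes of Cat and Hmox1 entered the test only through groups in which they were bright, so no call is read from them and they are given below as bounds.

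For several members the whole-muscle interval was narrow. Sod1 stood at 12.10, 12.14 and 12.35 in WT mice 1 to 3 and at 12.14, 12.27 and 12.13 in Het mice 1 to 3, a log2 difference of -0.02 with a 95% interval from -0.41 to 0.37. The arrays of the 2 genotypes were interleaved, and as folds the interval ran from 1.33-fold lower to 1.29-fold higher in Het. Prdx5 (0.03, interval -0.40 to 0.46), Txn2 (-0.05, -0.49 to 0.38) and Sod2 (0.16, -0.28 to 0.61) had similar intervals. Hmox1 and Sod3 had wide ones, from -3.77 to 0.84 and from -2.01 to 0.20, because the WT mice differed among themselves.

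**Figure D1:**
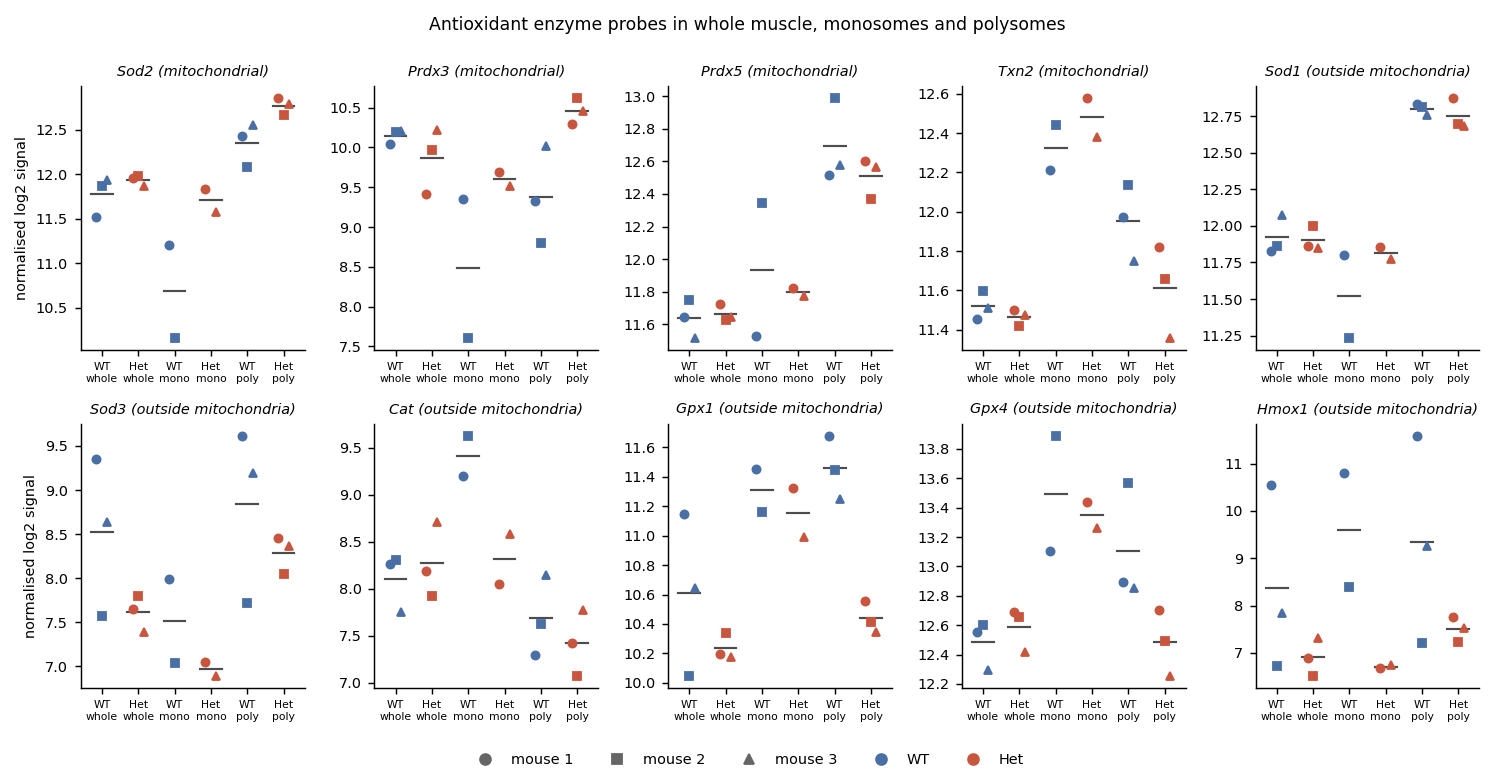
Normalised log2 signal (vertical axes, each with its own range) of the 10 antioxidant enzyme probes in WT and Het whole muscle, monosomes and polysomes, quantile-normalized over 16 arrays. Each marker is 1 array, its shape gives the mouse number, and bars are group means. Gpx1 in Het polysomes (3 red markers at 10.35 to 10.55) sits below all 3 WT polysome arrays (11.25 to 11.68), and Hmox1 is highest in WT mouse 1 in every RNA kind.

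In polysomes, 2 antioxidant genes passed the threshold, in opposite directions: Gpx1, the main cytosolic glutathione peroxidase, was lower in Het, and Prdx3, a mitochondrial peroxiredoxin, was higher. Gpx4, the glutathione peroxidase that acts on lipid peroxides in membranes, had the next lowest p and was lower in Het. Sod2 was higher on every Het array than on every WT array. The 2 of 10 members compare with 5.75% of all probes, 3 of 10 had an unadjusted p under 0.05 against 15.2% of all probes, and 0 of 10 had an adjusted p under 0.05, as was so for 0% of all probes. Separation of all arrays was seen for 2 members with Het higher (13.2% of all probes) and for 2 with Het lower (8.6%).

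Gpx1 polysome signals were 11.96, 11.73 and 11.53 in WT mice 1 to 3 and 10.84, 10.70 and 10.64 in Het mice 1 to 3. All Het arrays were below all WT arrays, and the spread within Het was small. The log2 difference was -1.01 (SE 0.27), 2.02-fold lower with a 95% interval from 1.35 to 3.02 (limma p = 0.00285, adjusted p = 0.22; exact permutation p = 0.1, the smallest that 3 against 3 allow). The size lay so close to the threshold that the call was lost without Het mouse 2 (-0.9995), Het mouse 3 (-0.97) or WT mouse 1 (-0.90), while the direction held in each. Markers of red blood cells (7 of 9 tested), cells that hold much GPX1, were also lower in Het: their summed log2 signal was 15.4 to 15.8 on Het and 16.4 to 17.6 on WT polysome arrays. Fibroblast markers (6 of 6 tested) differed the same way, with 15.2 to 15.4 on Het and 15.79 to 15.85 on WT polysome arrays. By mouse, the red blood cell markers were at 16.9, 17.6 and 16.4 in WT mice 1 to 3, another order than that of Gpx1. In monosomes they were at 16.5 to 16.6 in Het and 16.9 to 17.7 in WT, while Gpx1 differed by -0.15. The part of either list in the result was not tested.

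Prdx3 polysome signals were 9.62, 9.10 and 10.31 in WT and 10.58, 10.90 and 10.75 in Het, in the order of mice 1 to 3. All Het arrays lay above all WT arrays, and WT mouse 2 was lowest. The log2 difference was 1.07 (SE 0.31), a 2.10-fold higher signal in Het with an interval from 1.31 to 3.36 (limma p = 0.00531, adjusted p = 0.237; exact permutation p = 0.1). The array carries the Prdx3 probe as 10 spots, and the SD between spots of 1 array was 0.037 to 0.130 log2 units. Without WT mouse 2, whose polysome array stood apart along transcripts, the difference was 0.78 and without Het mouse 2 it was 0.99, so that the threshold was no longer passed in either case. On slide 1, which held 1 Het array and 2 WT arrays, it was 1.22, and on slide 2, which held 1 WT array and 2 Het arrays, it was 0.51, neither past the threshold with 1 array in an arm. Muscle fibre markers differed the same way between genotypes: their summed log2 signal was 19.996 to 20.06 on Het and 19.87 to 19.94 on WT polysome arrays, and 8 of 9 genes had higher estimates in Het. The order of mice was not that of Prdx3, with 19.93, 19.94 and 19.87 in WT mice 1 to 3 and the lowest Het value in mouse 2. Their part in the Prdx3 result, and in that of Sod2 below, was not tested.

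Gpx4 signals in polysomes were 13.17, 13.86 and 13.13 in WT and 12.97, 12.76 and 12.53 in Het. The gap between the highest Het and the lowest WT array was small, and WT mouse 2 was far above the other WT mice. The difference was -0.63 (SE 0.24; limma p = 0.0243, adjusted p = 0.283; exact permutation p = 0.1), and -0.40 without WT mouse 2. The red blood cell and fibroblast markers named for Gpx1 were also lower in Het, and the former were highest in WT mouse 2 (17.6). Their part in the Gpx4 result was not tested. Sod2 stood at 12.70, 12.36 and 12.83 in WT and at 13.13, 12.94 and 13.07 in Het, a difference of 0.42 (interval -0.03 to 0.87; limma adjusted p = 0.35), where again WT mouse 2 was the lowest array, and 0.28 without that mouse. For Sod1, the other superoxide dismutase measured as a protein, the polysome difference was -0.05 with an interval from -0.44 to 0.34.

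**Figure D2:**
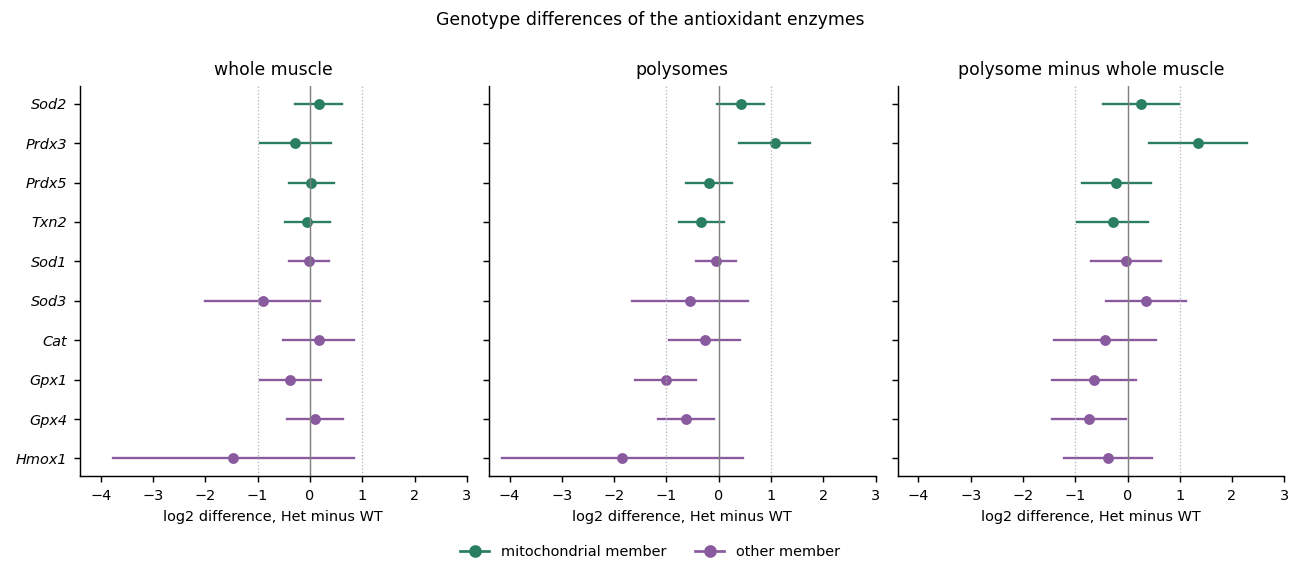
Log2 difference of Het minus WT for the 10 members in whole muscle, in polysomes and in the polysome minus whole-muscle ratio (horizontal axes); points are limma estimates and lines their 95% intervals, green for the 4 mitochondrial members and purple for the other 6. Dotted lines mark differences of 1. In polysomes Prdx3 lies at 1.07 and Gpx1 at -1.01, while all whole-muscle intervals include 0.

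By compartment, all 6 members outside mitochondria had lower estimates in Het polysomes, from -0.05 to -1.84, with a median of -0.59. Of the 4 mitochondrial members 2 were higher and 2 lower, with a median of 0.12, beside a median of 0.05 over all probes. In whole muscle the medians were -0.01 for mitochondrial and -0.20 for the other members. Most of these single differences did not pass a test, and the comparison of compartments is a description of 10 chosen genes.

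Polysome loading, the log2 polysome minus whole-muscle signal within a mouse, asks whether a transcript is more or less represented on polysomes for its amount in the muscle. Prdx3 was the member that passed the threshold for a genotype difference in loading (1 of 10, against 13.9% of all probes), and a share of 1 in 10 is below that background. Its ratios were -0.72, -1.39 and -0.18 in WT mice 1 to 3 and 0.87, 0.64 and 0.24 in Het mice 1 to 3. Prdx3 was under-represented on polysomes in each WT mouse and over-represented in each Het mouse. The difference was 1.35 (SE 0.39; limma p = 0.0109, adjusted p = 0.169; exact permutation p = 0.1), and 1.04 without WT mouse 2. With array brightness as a term, which differed between genotypes in these ratios, it was 0.75 and did not pass. Of 9 muscle fibre markers, 7 had higher and 2 lower loading in Het, with a median of 0.28 against 0.17 over all probes. Of these markers 3 passed the threshold upwards, as did 6.75% of all probes, and their part in the Prdx3 result was not tested.

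Gpx4 and Gpx1 ran the other way. Gpx4 ratios were 0.35, 0.98 and 0.56 in WT and 0.01, -0.16 and -0.16 in Het, a difference of -0.74 (SE 0.30; limma p = 0.0436, adjusted p = 0.283; exact permutation p = 0.1). Gpx1 ratios were 0.52, 1.39 and 0.60 in WT and 0.35, 0.07 and 0.17 in Het, a difference of -0.64 (SE 0.34, limma adjusted p = 0.386), and -0.36 without WT mouse 2. Of the 7 red blood cell markers tested, 6 had lower loading in Het, with a median difference of -1.10, and their part in the Gpx1 and Gpx4 results was not tested. For Gpx4 and Gpx1, every Het mouse was below every WT mouse, which 11.7% of all probes shared, and for Prdx3 every Het mouse was above, as for 13.6%. No member and 0% of all probes had an adjusted p under 0.05. Loading of Sod1 (-0.03) and Sod2 (0.26) differed by less than the spread between mice.

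The mean loading of the 4 mitochondrial members minus that of the other 6 was 0.36, 0.45 and 0.31 in Het mice 1 to 3 and 0.03, -0.40 and -0.27 in WT mice 1 to 3. Without Prdx3 it was 0.31, 0.43 and 0.39 in Het and 0.40, 0.11 and -0.07 in WT. The mice of the 2 genotypes overlapped once Prdx3 was left out, so the separation by compartment rests on that gene.

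**Figure D3:**
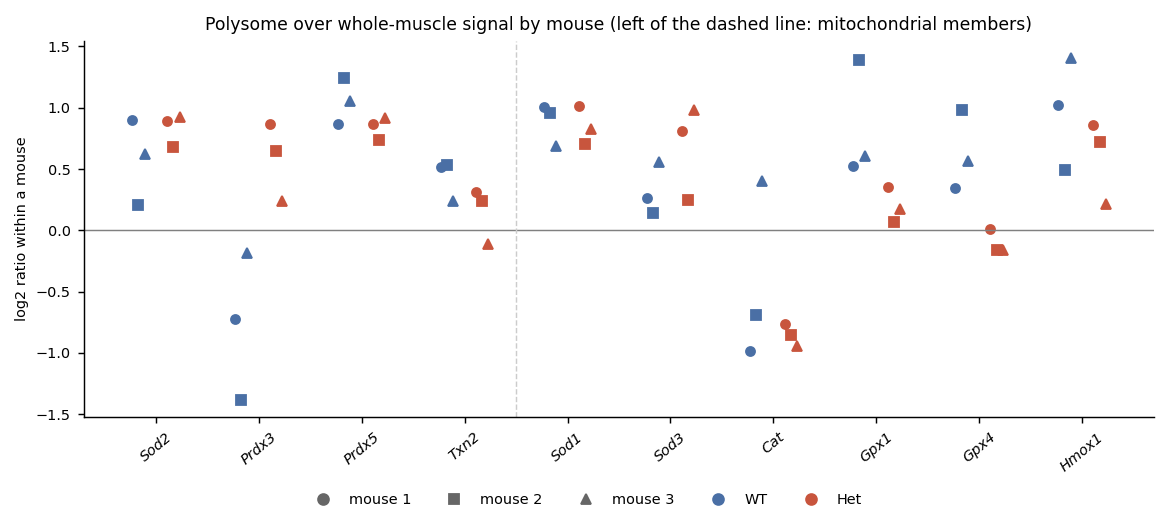
Log2 polysome over whole-muscle signal of each member (vertical axis) in the 3 WT (blue) and 3 Het (red) mice, with marker shapes for mouse numbers and mitochondrial members left of the dashed line. Prdx3 lies below 0 in all WT mice and above 0 in all Het mice, while Sod1, Sod2, Prdx5 and Hmox1 lie above 0 in all 6.

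Over both genotypes, Sod1, Sod2, Prdx5 and Hmox1 were over-represented on polysomes, and the other 6 members did not pass. These 4 passed an adjusted p under 0.05, all higher on polysomes than in whole muscle, which makes 4 of 10 members against 25.3% of all probes in either direction, 13.5% higher and 11.8% lower. Prdx5 had the largest mean ratio of the members, 0.95 (SE 0.14; limma adjusted p = 0.00482), or 1.93-fold. Sod1 followed with 0.87 (SE 0.14; limma adjusted p = 0.00664), then Hmox1 with 0.79 (SE 0.18; limma adjusted p = 0.0203) and Sod2 with 0.70 (SE 0.15; limma adjusted p = 0.0177). Cell markers also passed as higher: 6 of 6 for vascular smooth muscle, 4 of 7 for slow fibre, 3 of 6 for fibroblast and 3 of 5 for adipocyte. Macrophage, red blood cell and endothelial lists gave 1 each, and of 9 muscle fibre markers 1 was higher and 1 lower. The part of these lists was not tested.

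Per mouse, Sod1 ratios were 1.005, 0.96 and 0.68 in WT and 1.02, 0.70 and 0.83 in Het, and Prdx5 ratios were 0.86, 1.24 and 1.05 in WT and 0.87, 0.74 and 0.91 in Het. These were the most even members, with every mouse of both genotypes above 0.6 log2 units. Sod2 ratios were 0.90, 0.21 and 0.62 in WT and 0.89, 0.68 and 0.92 in Het, again lowest in WT mouse 2. The second Prdx5 probe (chr19:6981371-6981430) gave a mean ratio of 0.85 (limma adjusted p = 0.0127), close to the first. The second Hmox1 probe did not follow the first: in WT, where it was well above background in both RNA kinds, its ratios were -2.13, 1.68 and -1.21 in mice 1 to 3, so the Hmox1 call is that of the brightest probe alone.

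Sod3 (0.50) and Gpx1 (0.52) were also higher on polysomes in 6 of 6 mice (exact sign-flip permutation p = 0.0312, the smallest that 6 ratios allow) but had limma adjusted p of 0.0613 and 0.0636. Txn2 (0.29), Gpx4 (0.26) and Prdx3 (-0.09) did not pass. Catalase had the lowest mean ratio of the members. Its ratios were -0.99, -0.69 and 0.40 in WT and -0.77, -0.85 and -0.94 in Het, a mean of -0.64 (SE 0.21; limma adjusted p = 0.0611), lower on polysomes in all mice but WT mouse 3. Without that mouse Cat passed. The second, dimmer Cat probe was at -3.77, -0.73 and -1.66 in WT but at 1.21, 0.72 and 2.39 in Het. It was well above background on WT whole-muscle and Het polysome arrays alone. Sod2 lost its call without Het mouse 1, Het mouse 3 or WT mouse 3, and Hmox1 without Het mouse 1, Het mouse 2 or WT mouse 3, whereas Sod1 and Prdx5 passed whichever mouse was left out. Over these fits 11.7 to 28.15% of all probes passed. With 75th-percentile scaling in place of quantile normalization, 2 members passed (26.1% of all probes) and Sod2 was at 0.26. Under that scaling Gpx4 (-0.16) and Txn2 (-0.07) had the opposite sign. With normexp background correction 7 members passed (29.3% of all probes).

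The monosome arrays gave 4 members that passed the threshold between genotypes, against 28.6% of all probes, so that 4 of 10 is near the background. Sod2 (1.02) and Prdx3 (1.12) were higher in Het, and Cat (-1.10) and Hmox1 (-2.88) were lower. Prdx3 stood at 9.36 and 7.61 in WT mice 1 and 2 and at 9.69 and 9.52 in Het mice 1 and 3. Sod2 stood at 11.21 and 10.17 in WT and at 11.84 and 11.57 in Het. For both genes WT monosome 2, the array that stood apart along transcripts, was far below the others, and without that mouse Sod2 (0.50), Prdx3 (0.25) and Cat (-0.89) no longer passed, whereas Hmox1 (-4.08) and Sod3 (-1.02) did, as did 8.62% of all probes. Without Het mouse 1, none passed, against 9.18% of all probes. Such a fit leaves 1 monosome array in a genotype, which is assumed to vary as the other groups do, so these losses and gains are weak evidence. Adjusted p under 0.05 was reached by 0 members and 0.499% of all probes, and 2 against 2 arrays cannot give an exact p below 0.333. Cell markers separated the same arrays: summed log2 signals on Het and WT monosome arrays were 19.58 and 19.17 to 19.38 for muscle fibre, 8.95 to 9.12 and 9.65 to 11.001 for macrophage, 16.5 to 16.6 and 16.9 to 17.7 for red blood cell, and 10.94 to 10.99 and 11.9 to 12.2 for adipocyte markers. Fibroblast and vascular smooth muscle markers were also lower on both Het arrays, and the part of these lists in the results was not tested.

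Between polysomes and monosomes of the same mouse, the superoxide dismutases were on the polysome side and catalase, by its brightest probe, on the monosome side. Mean log2 polysome minus monosome ratios over 4 mice were 1.14 (SE 0.22) for Sod1, 1.34 (SE 0.24) for Sod2, 1.29 (SE 0.26) for Sod3 and 0.80 (SE 0.21) for Prdx5, each above 0 in 4 of 4 mice. Cat (-1.34, SE 0.21), Gpx4 (-0.57, SE 0.21) and Txn2 (-0.58, SE 0.21) were below 0 in 4 of 4 mice. Cat ratios were -1.91 and -2.002 in WT mice 1 and 2 and -0.62 and -0.82 in Het mice 1 and 3, so that its shift to monosomes was larger in both WT mice. The second, dimmer Cat probe did not follow: its ratios were 0.66 and 1.26 in WT and 1.05 and 2.95 in Het. Among polysome and monosome arrays that probe was well above background on the Het polysome arrays alone. The monosome side of catalase is thus that of the brightest probe. By limma 0 of 10 members and 0% of all probes had an adjusted p under 0.05 in the paired fit, with 7 of 10, against 41.1% of all probes, at an unadjusted p under 0.05 and the lowest adjusted p of a member at 0.0551. Without WT mouse 1, or without WT mouse 2, 6 members passed, as did 49.7% and 33.5% of all probes. The count was 4 with 75th-percentile scaling (25.2% of all probes), 7 with normexp (24.9%), with the authors' table (26.1%) and with only probes well above background throughout (51.5%), and 0 with no filter.

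Monosome RNA against whole muscle gave a partly inverse order. Gpx1 (0.84), Gpx4 (0.86) and Txn2 (0.90) were higher in monosomes in 4 of 4 mice, and Sod1 (-0.18), Sod2 (-0.61) and Sod3 (-0.75) lower in 4 of 4. Without WT mouse 2, whose monosome array stood apart, Sod1 was at -0.034, Sod2 at -0.26 and Sod3 at -0.95, so that the Sod1 value rests on that mouse. By limma none of the 10 members and 0% of all probes had an adjusted p under 0.05, 3 of 10 had an unadjusted p under 0.05 against 22.9% of all probes, a share near the background, and the smallest exact p for 4 ratios is 0.125.

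**Figure D4:**
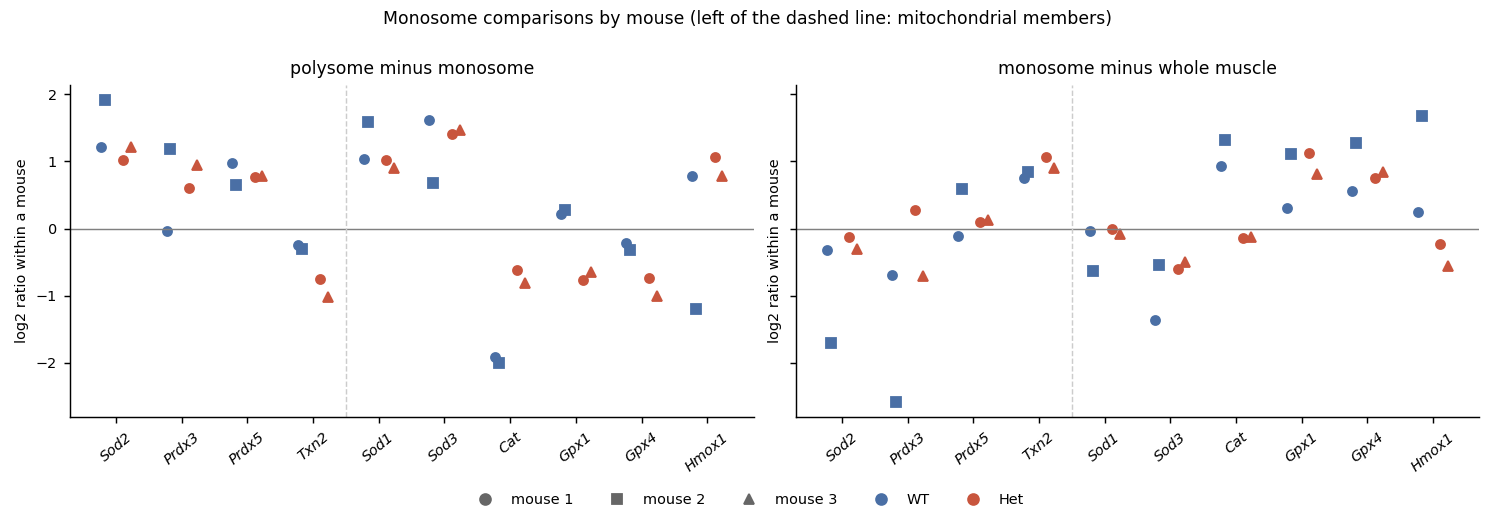
Log2 polysome over monosome signal (left) and monosome over whole-muscle signal (right) of each member in the 4 mice with both arrays; blue is WT, red is Het, marker shapes give mouse numbers and mitochondrial members are left of the dashed line. Sod1, Sod2, Sod3 and Prdx5 lie above 0 on the left in all 4 mice, Cat, Gpx4 and Txn2 below.

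Over the 6 groups, on the scale of all 16 arrays, Sod1 was at 12.80 ± 0.04 in WT and 12.75 ± 0.11 in Het polysomes, then at 11.92 ± 0.13 and 11.90 ± 0.08 in whole muscle, and lowest in Het (11.82 ± 0.06) and WT monosomes (11.52 ± 0.40; SD, n = 3, or 2 for monosomes). Within each RNA kind the arrays of the 2 genotypes overlapped. Txn2 had another order, with monosomes highest (12.48 ± 0.14 in Het, 12.33 ± 0.16 in WT), then polysomes (11.95 ± 0.19 in WT, 11.61 ± 0.23 in Het) and whole muscle (11.52 ± 0.07 and 11.47 ± 0.04). Gpx4 was likewise highest in monosomes (13.50 ± 0.55 in WT, 13.35 ± 0.12 in Het), and WT polysomes (13.11 ± 0.40) came next, ahead of Het whole muscle (12.59 ± 0.15), WT whole muscle (12.48 ± 0.17) and Het polysomes (12.48 ± 0.22), which overlapped.

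Cat was highest in WT monosomes (9.41 ± 0.30), followed by Het monosomes (8.32 ± 0.38), Het (8.27 ± 0.40) and WT whole muscle (8.11 ± 0.31), and lowest in WT (7.69 ± 0.43) and Het polysomes (7.42 ± 0.35). The last 5 groups overlapped with their neighbours in that order. Its second probe (chr2:103297086-103300428, across an exon junction) was dim. It was well above background in WT whole muscle and Het polysomes on all 3 arrays and on none of the other 10, and gave a signal at least 2.004-fold higher in WT than in Het whole muscle (limma adjusted p = 0.267), where the brighter probe differed by 0.16 the other way. In polysomes it was at least 1.91-fold higher in Het (limma adjusted p = 0.336), where the brighter probe gave -0.27.

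In whole muscle and polysomes, Hmox1 and Sod3 ranged more widely over the WT mice than the genotype means differed. Hmox1 in whole muscle was 10.83, 7.001 and 8.14 in WT mice 1 to 3 and 7.19, 6.80 and 7.60 in Het mice 1 to 3. In polysomes it was 11.86, 7.50 and 9.55 in WT and 8.05, 7.52 and 7.81 in Het, and in monosomes 10.79 and 8.39 in WT mice 1 and 2 and 6.68 and 6.74 in Het mice 1 and 3. WT mouse 1 was highest in all 3 RNA kinds, WT mouse 3 was next in whole muscle and polysomes, and WT mouse 2 lay among the Het mice in whole muscle and just below them in polysomes. The second, dimmer Hmox1 probe was well above background on all WT and on no Het arrays of whole muscle and polysomes, and so entered the test only through WT. Its signal was at least 2.42-fold higher in WT whole muscle (limma adjusted p = 0.506) and at least 3.17-fold higher in WT polysomes (limma adjusted p = 0.306). In WT polysomes it was at 5.21, 6.21 and 3.92 in mice 1 to 3, highest on the array of WT mouse 2 that stood apart along transcripts, where the brighter probe was lowest.

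Sod3 in whole muscle was 9.64, 7.87 and 8.93 in WT and 7.95, 8.10 and 7.68 in Het, and in polysomes 9.90, 8.01 and 9.49 in WT and 8.76, 8.35 and 8.66 in Het. The order of the WT mice was the same as for Hmox1. Genotype differences were -1.46 (SE 1.05) for Hmox1 and -0.91 (SE 0.50) for Sod3 in whole muscle, neither past the threshold, but without WT mouse 2 both passed it (Hmox1 -2.29, Sod3 -1.38), as both did in polysomes (Hmox1 -2.91, Sod3 -1.11). In these fits 9.91% of all probes passed in whole muscle and 4.21% in polysomes. With the replicate number as a block, Hmox1 passed in polysomes with all mice (-1.84, limma adjusted p = 0.33), as did 5.75% of all probes. In whole muscle Hmox1 turned to 1.05 and Sod3 to 0.10 with array brightness as a term.

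Macrophage markers moved with both genes. Of 9 listed, 8 were on the array by that name and 6 were tested, and Cd163 was not above background on any of the 12 arrays. Their summed log2 signal was 11.3, 8.94 and 10.6 in whole muscle of WT mice 1 to 3 and 9.13 to 9.24 in Het, and 11.6, 9.35 and 10.9 in WT polysomes against 9.14 to 9.72 in Het. WT mice 1 and 3 thus had the highest macrophage, Hmox1 and Sod3 signals. Adipocyte markers (5 of 6 tested) were also higher in WT mice 1 and 3 than in WT mouse 2, at 12.2, 10.8 and 12.4 in whole muscle of WT mice 1 to 3 against 11.2 to 12.5 in Het, and at 13.7, 12.7 and 13.8 in polysomes against 12.8 to 13.2. The part of either list in the result was not tested.

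**Figure D5:**
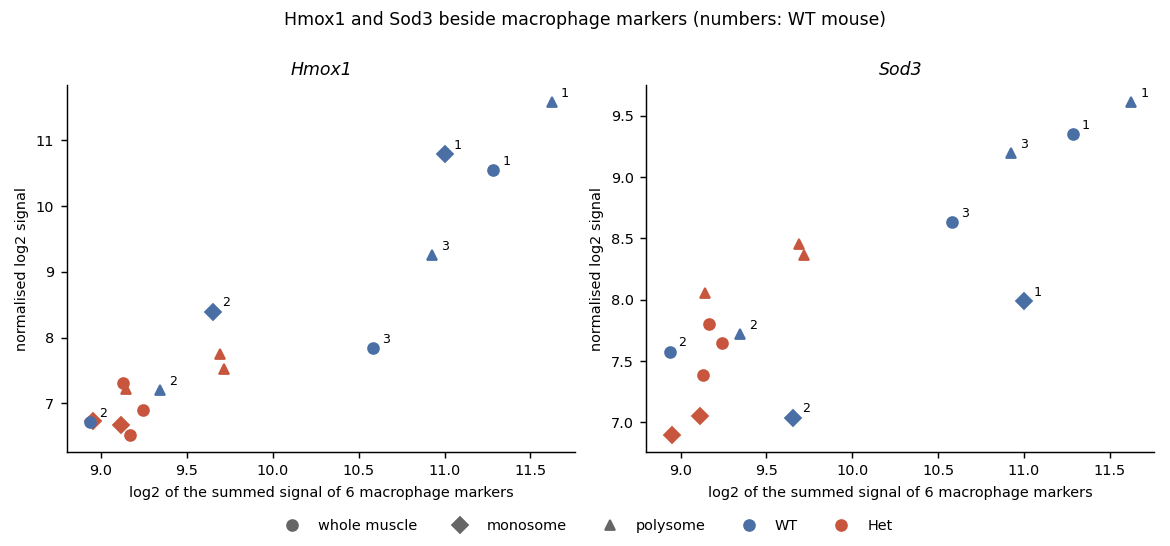
Normalised log2 signal of Hmox1 (left) and Sod3 (right) against the log2 summed signal of 6 macrophage markers, 1 marker per array; blue is WT with the mouse number beside it, red is Het, and shapes give the RNA kind. WT mouse 1 lies at the upper right in whole muscle and polysomes for both genes, and WT mouse 2 lies near the Het arrays in whole muscle.

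Other genes of the pathway, in 3 lists of 47 genes (14 of the thioredoxin and peroxiredoxin system, 18 of the glutathione system, 15 regulators and accessory proteins), were examined beside the members. Of these, 45 were tested, and none had an adjusted p under 0.05 between genotypes in limma. In whole muscle 20 were higher and 25 lower in Het, 0 passed the threshold upwards and 1 downwards, against 3.64% of all probes downwards. The 1 was Gss, which was not measured in Het whole muscle. Its probe entered the test only through Het polysomes, where it was bright, so no call is read from it. An unadjusted p under 0.05 was seen for 5, all lower, against 8.45% of all probes in either direction. In polysomes 30 were higher and 15 lower with a median of 0.25 against 0.05 over all probes. An unadjusted limma p under 0.05 was seen for 7 higher and 3 lower, against 15.2% of all probes in either direction. The threshold was passed upwards by 3 (4.2% of all probes) and downwards by 0. Gss was among the 3, where again no call is read from it. In loading 33 were higher and 12 lower with a median of 0.31 against 0.17 over all probes. The threshold was passed upwards by 2 (Gss and Ucp3) against 6.75% of all probes, and no call is read from Gss because its Het whole-muscle signal was not measured. On polysomes against whole muscle, 11 were higher and 1 lower at an adjusted p under 0.05, where 13.5% of all probes were higher and 11.8% lower.

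Among them Gss (glutathione synthetase), Mgst3 (-1.47) and Gpx3 (the plasma glutathione peroxidase, -0.90) had the lowest fitted whole-muscle differences, and the highest those of Nqo1 (0.52), Txnrd3 (0.27) and Park7 (0.22). In whole muscle the Gss probe was well above background on 2 WT arrays and on no Het array, so that its difference there is not measured and no value is given. In polysomes Gpx3 (-0.97), Gpx7 (-0.82) and Blvrb (biliverdin reductase B, -0.72) were lowest and Bach1 (1.65), Ucp3 (1.26) and Gss highest, the last with no value given because its probe was well above background on 1 of 3 WT arrays. Nfe2l2, the NRF2 factor that acts through the antioxidant response element, was 1.09 higher in Het polysomes (limma adjusted p = 0.33). Nfe2l2 lies outside the fixed rule for named genes and was chosen after its value was seen. For loading, Gss, Ucp3 (2.01) and Mgst3 (1.99) had the highest fitted differences and Glrx2 (-0.81), Gpx7 (-0.65) and Keap1 (the NRF2 inhibitor, -0.55) lowest, and the Ucp3 probe was well above background on 9 of the 12 arrays. The Gss ratio and its call rest on the unmeasured Het whole-muscle signals.

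On polysomes against whole muscle the genes at an adjusted p under 0.05 were Keap1 (0.95), Gpx3 (0.89), Gstm2 (0.85), Mafk (0.80), Msrb3 (0.77), Hmox2 (0.75), Prdx4 (0.71), Msrb1 (0.71), Ccs (0.64), Gclc (0.62) and Gstp1 (0.54), all higher, and Txnip (-0.83), lower. CCS is the chaperone that loads copper into SOD1, and TXNIP binds and inhibits thioredoxin. Ccs and Sod1 were thus both over-represented on polysomes.

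The genes whose signal over the 12 whole-muscle and polysome arrays was most like that of Sod1, by Pearson correlation among 11478 probes well above background on all 12, were Psmb3 (r = 0.984), Psmb5 (r = 0.984) and Ndufb3 (r = 0.983). For Sod2 they were Tef (r = 0.981), Ndufa12 (r = 0.981) and Sdhd (r = 0.977). Polysome and whole-muscle arrays made up equal parts of the points, and on the former both dismutases were higher. The arrays of a mouse share an animal, so these values describe likeness only.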

How the data were processed

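RNA of whole gastrocnemius, polysomes and monosomes was hybridised to 1-colour Agilent mouse arrays. The deposited scanner files hold the intensity of each spot, written by Agilent Feature Extraction 11.0.1.1 as a background-corrected processed signal, with positions on mm9. A deposited value table holds log2 values of the same 16 arrays, which ranked probes as the scanner signal did (Spearman 1 on every array), with column medians of 5.68 to 5.70. The study's methods give log2 transformation followed by quantile normalization.

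Spots of a probe were combined, control spots were left out, and log2 signals were brought to the same quantiles on the 12 arrays without monosomes, or on all 16 for monosome comparisons (limma 3.58.1, R 4.3.3). Probes with a signal well above background on all arrays of some group were tested, 19812 and 20250 of them. Between 23.5 and 45.9% of spots per array were well above background, and the number of arrays limits the precision. Genotype comparisons used lmFit and eBayes by group. Ratios were formed within a mouse, since the series' design text has all RNA kinds coming from each animal, and were fitted by genotype. Deviations of whole-muscle and polysome arrays of the same mouse correlated with r of 0.058 to 0.485, and each pair but WT mouse 3 correlated best with its own partner. Genotype calls needed an absolute log2 difference above 1 with unadjusted p under 0.05. Calls between RNA kinds needed a Benjamini-Hochberg adjusted p under 0.05. Exact permutation tests were two-sided, and steps were tested on simulated data.

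Members, lists and tests were chosen with earlier results of these data known. Named were all 10 members, by the probe with the highest mean signal, the 3 highest and 3 lowest of the 47 other antioxidant genes per genotype comparison and those at an adjusted p under 0.05, Eif6, and the 3 genes most like Sod1 and Sod2. Arrays lay on 2 slides, and no mouse had its whole-muscle and polysome arrays on the same slide. Alternatives were normexp background correction with an offset of 50, 75th-percentile scaling, the authors' log2 table, other filters, slide or brightness as a term, each slide alone, the methods' t-test, the replicate number as a block and leaving out each mouse. Sequences came from the array design's probes and from RefSeq promoter windows (GRCm38.p6).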

Additional observations from a re-analysis of the deposited data

Results flagged for a closer look

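Each of the 10 members was looked at in the ratios of polysomes to whole muscle, of polysomes to monosomes and of monosomes to whole muscle. In 4 cases every mouse of one genotype had a ratio of one sign and every mouse of the other genotype the opposite sign. These cases were thus picked from many ratios. Catalase in monosomes against whole muscle was at 0.93 and 1.32 in WT mice 1 and 2 and at -0.14 and -0.12 in Het mice 1 and 3, a Het minus WT difference of -1.2561. The second, dimmer Cat probe, not well above background on any monosome array, was at -4.29 and -1.97 in WT and at 0.11 and -0.66 in Het. Hmox1 in the same ratio was at 0.24 and 1.68 in WT and at -0.22 and -0.56 in Het, a difference of -1.3528. Without WT mouse 2, whose monosome array stood apart along transcripts, the Hmox1 difference was -0.64 and that of catalase -1.06. Of all probes, 6.39% had this pattern of signs, above 0 in WT and below 0 in Het, and 6.38% had the reverse. Gpx1 in polysomes against monosomes was at 0.22 and 0.28 in WT and at -0.77 and -0.64 in Het, a difference of -0.9589. Of all probes, 5.03% had that pattern of signs and 4.22% the reverse. These 3 differences were not tested, and each rests on 2 mice per genotype. The Prdx3 ratio of polysomes to whole muscle, below 0 in 3 of 3 WT mice and above 0 in 3 of 3 Het mice, differed by 1.3473 (limma p = 0.0109, adjusted p = 0.169; exact permutation p = 0.1). Of all probes, 2.16% had that pattern and 4.92% the reverse.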

How the results depend on the processing

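Of 1020 member values recomputed under the alternatives, 973 kept their direction and 841 their side of the call, and 47 reversed. The cause was not tested for any of them. Fits within a slide leave 1 array in a genotype for each RNA kind (monosomes: 1 against 1), assumed to vary like the other groups. For loading and polysomes against whole muscle they set group means of different mice against each other, because no mouse had both arrays on a slide, and so are not within-mouse ratios. The number of members called between genotypes in polysomes (2, with 5.75% of all probes) was 1 with normexp (1.25%), with 75th-percentile scaling (6.72%), with the authors' table (1.35%) and with a slide term (3.61%), and 0 on slides 1 and 2 alone (0.893% and 1.77%). In loading (1, with 13.9%) it was 0 with the brightness term (4.07%) and for the unpaired difference on slide 1 (1.70%). In monosomes (4, with 28.6% of all probes) it was 1 with normexp (10.8%), 2 with a slide term (28.6%), and 0 and 2 on slides 1 and 2 alone (2.02% and 53.7%). On polysomes against whole muscle (4, with 25.3% of all probes) it was 7 with normexp (29.3%), with the authors' table (29.2%) and with only probes well above background on every array (41.1%), 2 with 75th-percentile scaling (26.1%) and with the brightness term (12.3%), and 0 within either slide (0%). On polysomes against monosomes (0) it was 7 with normexp, the authors' table and the stricter filter, and 4 with 75th-percentile scaling, while the share of all probes called went from 0% to 24.9%, 26.1%, 51.5% and 25.2%. Leaving out each mouse gave 0 to 2 members in whole muscle (2.68 to 9.91% of all probes), 0 to 3 in polysomes (3.03 to 10.5%), 1 to 1 in loading (10.7 to 15.3%), 2 to 4 on polysomes against whole muscle (11.7 to 28.15%), 0 to 4 in monosomes (8.62 to 55.8%), 0 to 6 on polysomes against monosomes (0 to 49.7%) and 0 to 4 on monosomes against whole muscle (0 to 36.7%).

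Replicate numbers are not stated to pair WT with Het mice, and same-numbered mice of the 2 genotypes correlated with r of -0.33 to 0.46. With the replicate block, 0 members passed in whole muscle (6.08% of all probes) and 3 in polysomes (5.75%), where Gpx1 (-1.01) and Prdx3 (1.07) kept their calls and Hmox1 (-1.84, limma adjusted p = 0.33) was added. With no replicate block in the comparisons of RNA kinds, 6 members passed on polysomes against monosomes (26.0% of all probes) and 5 on monosomes against whole muscle (24.9%).

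Reversed whole-muscle differences were those of Sod1 with normexp (0.034), 75th-percentile scaling (0.13), the authors' table (0.011) and within slide 2 (0.014), Txn2 with 75th-percentile scaling (0.093), Prdx5 with the authors' table (-0.0047), Sod2 within slide 1 (-0.0037), Cat within slide 2 (-0.10), and, with the brightness term, Sod3 (0.10), Gpx4 (-0.048), Prdx5 (-0.12) and Hmox1 (1.05). In polysomes Sod1 reversed within slide 1 (0.052) and with the brightness term (0.013). In loading Sod1 reversed with a slide term (0.059) and with brightness (0.37), and the unpaired differences within a slide reversed for Sod1 on slide 1 (0.20) and for Sod2 (-0.087) and Sod3 (-0.18) on slide 2. On polysomes against whole muscle Gpx4 (-0.16) and Txn2 (-0.074) reversed with 75th-percentile scaling, and Gpx4 (-0.018) and Prdx3 (0.51) within slide 2. In monosomes Gpx1 (0.071), Gpx4 (0.059) and Prdx5 (0.20) reversed with 75th-percentile scaling, Gpx4 (0.33) and Prdx5 (0.30) within slide 1 and Txn2 (-0.060) within slide 2. Prdx5 on monosomes against whole muscle was -0.062 with 75th-percentile scaling. Leaving out each mouse moved the whole-muscle difference from -0.065 to 0.058 for Sod1, from -0.055 to 0.34 for Cat and from -0.031 to 0.084 for Prdx5, and the loading difference of Sod1 from -0.13 to 0.042. In monosomes the range was -0.32 to 0.013 for Gpx1, -0.54 to 0.25 for Gpx4 and -0.54 to 0.27 for Prdx5. Between RNA kinds it was -0.23 to 0.067 for Prdx3 (polysomes against whole muscle), -0.13 to 0.86 for Hmox1 (polysomes against monosomes), and, for monosomes against whole muscle, -0.00046 to 0.35 for Prdx5 and -0.075 to 0.64 for Hmox1.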
